A study of Mus musculus with 48 samples.

Results

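Neurons of *Eed-cKO* hypothalamus in which Hox transcripts were counted were compared with neurons of the same mutant embryos in which none were. The cells came from *Eed-cKO* animals (*Eed* fl/fl;*Sox1-Cre*) and controls (*Eed* fl/fl), so both genotypes carried the floxed allele and only the mutants carried *Sox1-Cre*, an allele that is active in early neural cells. All embryos were at E18.5, and their hypothalami were profiled on the ddSEQ platform, which encloses single cells in droplets and counts unique molecular identifiers (UMIs), random tags that let copies of 1 RNA molecule be counted once. The series held 14121 cells in 48 libraries: 7186 control cells from 22 libraries of 6 embryos, and 6935 *Eed-cKO* cells from 26 libraries of 9 embryos. A neuron was an *Eed-cKO* cell with at least 2000 UMIs, with at least 4 of the 6 neuronal genes *Stmn2*, *Tubb3*, *Snap25*, *Syt1*, *Elavl4* and *Rbfox3* detected, and with 0 UMIs of *Tfap2b*. Of 5800 *Eed-cKO* cells that reached 2000 UMIs, 4244 met the neuronal requirement, 537 of these were left out for *Tfap2b*, and 3707 remained. The classes were chosen by the measured Hox UMIs: neurons with 2 or more UMIs summed over the Hox genes were called Hox-positive (1228 cells) and neurons with 0 were called Hox-negative (2116 cells). The members were therefore 3344 of the 14121 cells, and the 363 neurons with exactly 1 Hox UMI belonged to neither class.

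Polycomb repressive complex 2 (PRC2), of which EED is a core subunit, places the repressive mark H3K27me3 on silent developmental genes. Hox genes lie in clusters and encode homeodomain transcription factors that give positional identity along the hindbrain and spinal cord, and they are normally silent in the forebrain, which includes the hypothalamus. Loss of PRC2 in the neural tube is known for releasing Hox genes in anterior territories. In the control libraries the same gate took 4827 neurons, of which 4821 had 0 Hox UMIs, 6 had 1 and 0 had 2 or more, which allows a share of Hox-positive cells of up to 0.0622%.

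Depth did not separate the classes by much. The median Hox-positive neuron held 5350 UMIs and 2798 genes, and the median Hox-negative neuron 5302.5 UMIs and 2729 genes. Across 5 bins of depth from 2000 UMIs upward, 31.9%, 33.9%, 33.2%, 31.7% and 36.3% of the neurons were Hox-positive. When every cell was thinned, that is, reduced at random to 2000 UMIs, 795 of 3707 neurons (21.4%) still held 2 or more Hox UMIs, against 33.1% at full depth. Neuronal identity was described with 14 pan-neuronal genes that the gate did not use, such as *Map2* and *Dcx*. At least 2 of them were detected in every cell of both classes and in every control neuron. The cells had been gated on other neuronal genes, so this is not an independent check. The summed level of the 14 genes was 20317 to 26870 CPM, that is, UMI counts per 1000000 UMIs of an embryo's cells of that class, in Hox-positive neurons (median 26242) and 20114 to 23906 in Hox-negative neurons (median 22879). *Meg3*, 1 of the 14, was at 6228 to 9988 CPM against 5569 to 7174. Cell barcodes that occurred in more than 1 library were carried by 27 Hox-positive and 31 Hox-negative cells. The labels give the libraries of each embryo, and the leading number of an embryo's name was read as its litter, so that no litter held both genotypes.

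Each of the 9 mutant embryos contributed to both classes. The Hox-positive share of neurons was 24.96% in the lowest embryo (F0571_E3), 32.7% in the median embryo and 44.6% in the highest (F0589_E1). An embryo gave 34 to 253 Hox-positive cells (median 143) and 55 to 412 Hox-negative cells (median 256). Their UMIs were summed per embryo and class, which gave totals of 122740 to 1912026 UMIs for Hox-positive sums and 225364 to 2239292 for Hox-negative sums. The smallest sums in both classes were those of F0582_E2, which came from 1 library.

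**Figure D1:**
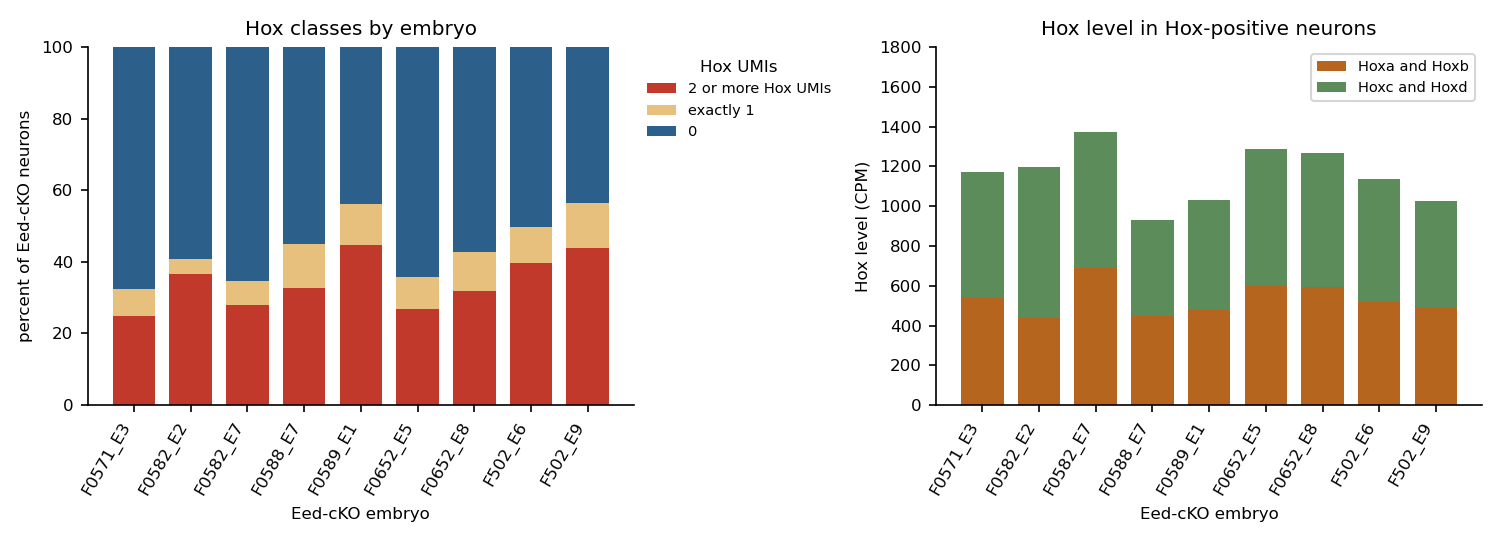
Left, percent of *Eed-cKO* neurons with 2 or more Hox UMIs (red), exactly 1 (sand) and 0 (blue), 1 bar for each of 9 embryos. Right, Hox level (CPM) in the Hox-positive neurons of each embryo, split into Hoxa and Hoxb (brown) and Hoxc and Hoxd (green). The Hox-positive share runs from 24.96% to 44.6%, and both cluster pairs contribute in every embryo.

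The Hox UMIs themselves chose the classes and are given as a description without a test. The Hox-positive neurons held 8645 Hox UMIs in all, with a median of 6 per cell (quartiles 3 and 9, highest 44). Of these cells, 192 held exactly 2 Hox UMIs, 143 held 3, 893 held 4 or more and 306 held 10 or more. The Hox level of the class was 933 CPM in the lowest embryo, 1171 in the median embryo and 1371 in the highest. A Hox-positive neuron held UMIs of a median of 4 different Hox genes, with a range of 1 to 16.

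All 4 mouse clusters were represented. In mm10 the Hoxa cluster lies at chr6:52155367-52260880, Hoxb at chr11:96194316-96368254, Hoxc at chr15:102921131-103036856 and Hoxd at chr2:74668225-74765142. Hoxc genes gave 38.7% of the Hox UMIs and were found in 82.4% of the Hox-positive cells, followed by Hoxa (28.7% of UMIs, 70.0% of cells), Hoxb (18.2%, 62.8%) and Hoxd (14.4%, 54.7%). UMIs from a single cluster were seen in 135 cells (10.99%), from 2 clusters in 385 (31.4%), from 3 in 422 (34.4%) and from all 4 in 286 (23.3%). Genes of paralogue groups 10 to 13, which mark the most posterior levels of the body axis, gave 50.2% of the UMIs, groups 5 to 9 gave 36.2% and groups 1 to 4 gave 13.6%.

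The 2 Hox genes with the most UMIs were *Hoxc10* (1243 UMIs, 52.6% of Hox-positive cells) and *Hoxc13* (1000 UMIs, 41.3%). *Hoxc10* was counted at 129 to 261 CPM over the embryos (median 174), and *Hoxc13* at 97.6 to 182 (median 134). *Hoxb13* followed with 71.7 to 140 (median 86.4), ahead of *Hoxa9* with 57.6 to 117 (median 85.8) and *Hoxa10* with 57.0 to 116 (median 78.2). The ranges of *Hoxc10* and *Hoxc13* overlapped, as did those of *Hoxb13*, *Hoxa9* and *Hoxa10*. At the other end, *Hoxb1*, which is normally read in a single hindbrain segment, gave 2 UMIs. These UMI levels are not corrected for how well each 3′ end was captured. Neighbouring Hox genes also overlap in the annotation (*Hoxb4* lies inside the span of *Hoxb3*, and *Hoxd4* inside that of *Hoxd3*), so the split of UMIs between such neighbours is uncertain.

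**Figure D2:**
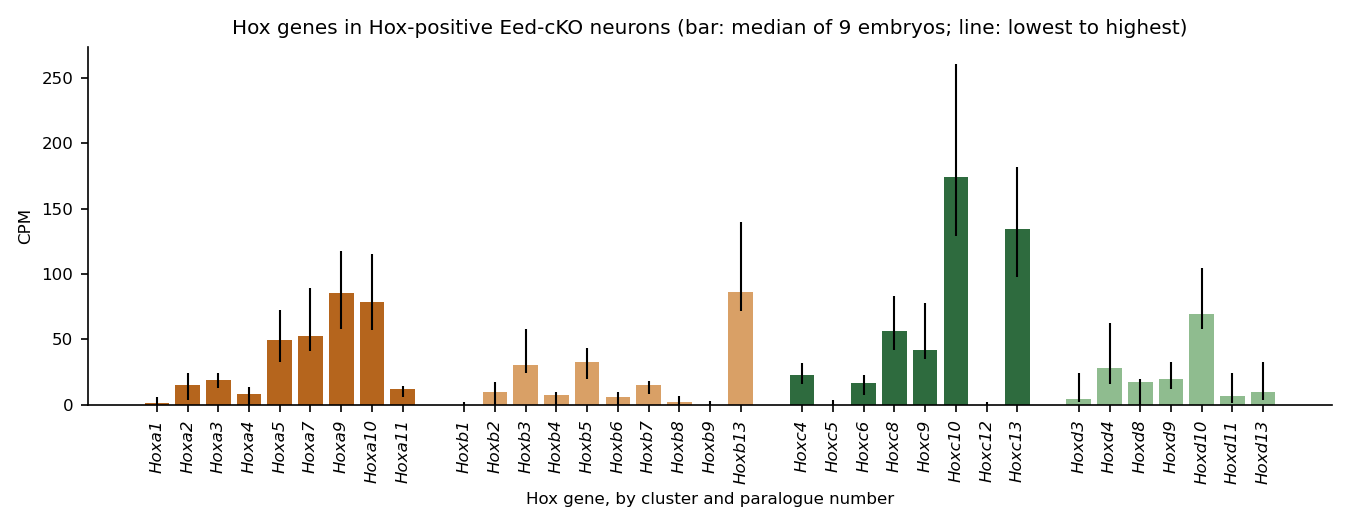
Level (CPM) of each of 34 Hox genes in Hox-positive *Eed-cKO* neurons, ordered by cluster and paralogue number. Bars are the median of 9 embryos and lines run from the lowest to the highest embryo. *Hoxc10* and *Hoxc13* have the highest medians, 174 and 134, and *Hoxb13* and *Hoxd10* the highest of their clusters, 86.4 and 69.0.

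Noncoding genes inside the clusters were not part of the rule and were left out of the gene-level fit. *Mira*, a noncoding transcript of the Hoxa cluster, gave 374 UMIs in Hox-positive and 14 in Hox-negative neurons. *Hotair*, the long noncoding RNA of the Hoxc cluster, gave 78 and 4, and *Hoxa11os*, antisense to *Hoxa11*, gave 71 and 3. None of these 3 genes gave a UMI in the control neurons.

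Whether the clusters were read in the same cells was asked by forming other classes from all 3707 neurons by Hoxa and Hoxb alone and measuring Hoxc and Hoxd, which lie on other chromosomes and had no part in these classes. In the 869 neurons with 2 or more Hoxa and Hoxb UMIs, the Hoxc and Hoxd level was 493 CPM in the lowest embryo, 661 in the median embryo and 869 in the highest. In the 2425 neurons without a Hoxa or Hoxb UMI it was 28.1, 45.0 and 128. The ranges did not overlap, and the mean difference was 3.64 ± 0.71 on the log2 scale (SD, n = 9 embryos), higher in 9 of 9 (exact paired permutation test, two-sided, p = 0.0039, the smallest p that 9 pairs can give). A Hoxc or Hoxd UMI was found in 86.7% of the first cells and in 12.7% of the second. With the roles of the cluster pairs exchanged the difference was 3.87.

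Hox UMIs also occurred outside neurons. Among 330 non-neural *Eed-cKO* cells (at least 3 detected markers of endothelial, mural, leptomeningeal fibroblast or microglial cells and at most 1 of the 6 neuronal genes, with a median depth of 4485.5 UMIs), 20.3% held a Hox UMI and 11.2% held 2 or more. The share with a Hox UMI was 26.3% of 232 cells with fibroblast markers, 19.4% of 31 with mural markers, 7.89% of 76 with endothelial markers and 0 of 21 with microglial markers. In the 184 control cells chosen in the same way it was 0.543%. How much of the Hox signal in these cells and in neurons was free RNA in the droplets was not tested.

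Other genes changed across the edge of the rule. *Meis2* stood at 42.8 CPM in cells with 0 Hox UMIs, 112 with 1, 197 with 2, 262 with 3 and 255 with 4 or more. *Tal1* stood at 33.2, 73.9, 124, 173 and 221 in the same order, and *Slc32a1* at 51.1, 102, 148, 156 and 197. *Dmbx1* stood at 1.08, 5.012, 5.004, 7.68 and 68.3. The cells with 1 Hox UMI lay between the classes for the first 3 genes, while *Dmbx1* was high only in cells with 4 or more.

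Expression of all other genes was then compared between the classes over the 18 sums (edgeR, quasi-likelihood test, embryo as a block), and p-values were adjusted by the Benjamini-Hochberg method over all 13102 genes tested. In total 1361 genes passed the adjusted p threshold of 0.05 (10.4% of the genes tested), of which 716 were higher in Hox-positive neurons (5.46%) and 645 lower (4.92%). Of these, 282 were higher and 316 lower in all 9 embryos. Levels below are CPM, a log2 fold change is that of the fit with its standard error, and the p-values measure the spread between embryos.

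Transcription factors of hindbrain and spinal cord neurons led the genes that were higher in Hox-positive neurons. Of 61 listed factors, 50 were in the table and 37 passed the filter on low counts; 20 were higher (against 5.46% of all genes tested), 6 were lower and 11 did not pass the test, with a median log2 fold change of 1.62 against -0.01 for all genes. A factor near 0 in Hox-negative neurons could enter the test only through the Hox-positive sums, so this count is a description. The 6 lower members were *Prdm8*, *Sall3*, *Irx3*, *Irx5*, *Uncx* and *Lmx1a*, several of which are also used in the forebrain and midbrain.

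*Tal1* (chr4:115056426-115071755) and *Gata3* (chr2:9857078-9887953) encode factors that specify inhibitory V2b interneurons of the spinal cord and GABAergic neurons of the brainstem. *Tal1* was at 142 to 233 CPM in Hox-positive neurons (median 195) and at 26.4 to 54.9 in Hox-negative neurons (median 33.3), without overlap, with a log2 fold change of 2.59 ± 0.09 (adjusted p = 1.9e-23). *Gata3* was at 76.9 to 172 (median 96.2) against 0.716 to 14.9 (median 8.68), and the fold change was 4.00 ± 0.20 (adjusted p = 2.0e-18). Control neurons held *Gata3* at 1.07 to 16.2, within the range of the Hox-negative neurons, and *Tal1* at 2.54 to 7.56, below it. A *Tal1* UMI was found in 60.7% of Hox-positive, 11.9% of Hox-negative and 1.37% of control neurons, and in 9.70% of the non-neural *Eed-cKO* cells. Thinned to 2000 UMIs, the shares were 32.5%, 5.53%, 0.602% and 6.06%. The Hox-negative share thus lay above that of control neurons and near that of the non-neural mutant cells. Whether the *Tal1* UMIs of the non-neural cells were their own or free RNA was not tested, so these cells are not a blank.

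*Dmbx1* (chr4:115915119-115940597), a paired-type homeobox gene of the midbrain, hindbrain and spinal cord, showed the largest log2 fold change among the genes that were higher in all embryos, 5.51 ± 0.26 (adjusted p = 1.6e-19). It was at 39.9 to 65.3 CPM in Hox-positive neurons (median 59.5) and at 0 to 2.98 in Hox-negative neurons (median 0.716), and 11.7% of Hox-positive cells held a UMI of it against 0.614% of Hox-negative and 0.606% of non-neural cells (7.003%, 0.0945% and 0.303% after thinning). *Pax2* and *Pax8* are paired-box genes of spinal inhibitory interneurons. *Pax2* was at 8.15 to 35.0 (median 14.1) against 0 to 2.61 (median 0.447), a log2 fold change of 4.45 ± 0.41. *Pax8* had a median of 10.4 and was at 0 in 1 embryo, against 0 to 2.61 (median 0), with overlapping ranges and a fold change of 4.51 ± 0.57 (adjusted p = 1.5e-07), higher in 8 of 9 embryos. When the cells were thinned, *Pax8* no longer passed the test (log2 fold change 1.28, adjusted p = 0.46).

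Selectors of other territories were higher in the same class. *Tlx3* and *Tlx1*, homeobox genes of dorsal excitatory spinal neurons, were at medians of 8.22 and 8.15 CPM in Hox-positive neurons and at medians of 0 in Hox-negative neurons (log2 fold changes 4.65 ± 0.56 and 4.64 ± 0.56). *Tfap2a*, a factor of neural crest and dorsal interneurons and the relative of the gene used in the gate, was at 16.3 to 50.3 against 0 to 7.46 (3.10 ± 0.23, adjusted p = 1.9e-13). *Olig3*, a factor of dorsal hindbrain and spinal progenitors, was at 3.45 to 20.97 against 0 to 2.61 (4.93 ± 0.53). Genes best known outside the central nervous system were also among the 12 largest increases of genes higher in all embryos: *Barx1* of jaw and stomach mesenchyme (5.01 ± 0.38), *Tbx5* of heart and forelimb (4.00 ± 0.39), *Hand2* of heart, limb and sympathetic neurons (3.77 ± 0.40), *Nkx2-3* of spleen and gut (4.23 ± 0.33) and *Hmx1* of sensory ganglia (4.20 ± 0.40). *Lamp5*, which encodes a membrane protein of synaptic vesicles and endosomes, was at 48.9 to 154 (median 95.2) against 0 to 9.30 (median 2.61), a log2 fold change of 4.47 ± 0.18. None of the ranges of these genes overlapped between the classes.

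Not every factor of this kind differed. *Lhx5*, a LIM-homeobox gene of both spinal cord and hypothalamus, was at 8.15 to 35.0 CPM in Hox-positive and 9.14 to 44.1 in Hox-negative neurons (log2 fold change -0.08 ± 0.15, adjusted p = 0.83). *Evx1*, the V0 interneuron gene next to the Hoxa cluster, was too low to be tested, with 10 UMIs in Hox-positive, 1 in Hox-negative and 0 in control neurons.

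**Figure D3:**
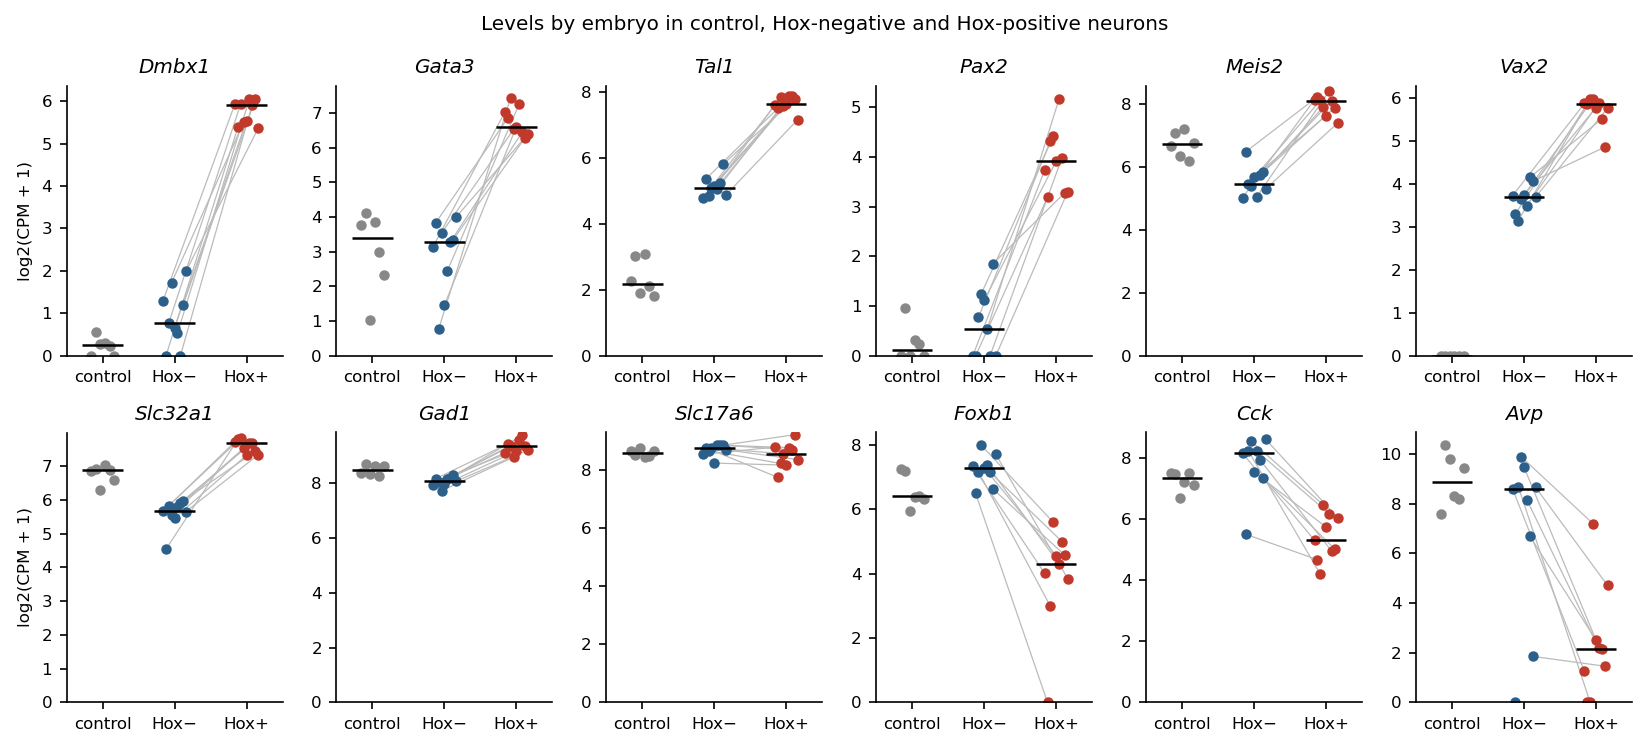
Levels of 12 genes as log2(CPM + 1) in control neurons (grey, 6 embryos), Hox-negative (Hox−, blue) and Hox-positive (Hox+, red) *Eed-cKO* neurons (9 embryos each); grey lines join the classes of 1 embryo and black bars are medians. *Dmbx1*, *Gata3*, *Tal1*, *Pax2*, *Meis2*, *Vax2*, *Slc32a1* and *Gad1* are higher in all 9 Hox-positive sums without overlap, *Slc17a6* overlaps, and *Foxb1* is lower in all 9.

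Factors of forebrain and hypothalamus did not move one way. Of 47 tested, 15 were higher in Hox-positive neurons (against 5.46% of all genes tested), 11 were lower (against 4.92%) and 21 did not pass the test (median log2 fold change -0.05). *Foxb1* (chr9:69757710-69760940), a forkhead gene of the mammillary hypothalamus, was at 0 to 47.1 CPM in Hox-positive neurons (median 18.7) and at 88.7 to 252 in Hox-negative neurons (median 155), the largest decrease among genes lower in all embryos (-2.85 ± 0.13, adjusted p = 6.1e-20). *Vax2*, a homeobox gene of ventral retina and forebrain, was at 27.96 to 62.1 against 7.87 to 16.8 (2.13 ± 0.16). The ranges of *Foxb1* and *Vax2* did not overlap, whereas those of *Lhx9*, a LIM-homeobox gene of hypothalamus and pretectum, did (19.4 to 136 against 2.45 to 82.3, 2.09 ± 0.24).

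Cofactors of the TALE class (MEIS, PBX and PKNOX proteins), which bind DNA together with Hox proteins, were higher in 5 of 9 tested cases (against 5.46% of all genes tested) and lower in 0. *Meis2* (chr2:115861264-116067537) was at 169 to 341 CPM in Hox-positive neurons (median 276), at 31.8 to 88.7 in Hox-negative neurons (median 42.9) and at 73.1 to 148 in control neurons. The classes did not overlap and the log2 fold change was 2.54 ± 0.11 (adjusted p = 3.2e-21). *Meis1* was at 26.04 to 44.3 against 5.97 to 18.49 (1.55 ± 0.17), again without overlap. *Pbx3* (0.74 ± 0.08) and *Pknox2* (0.71 ± 0.13) were higher in 8 of 9 embryos with overlapping ranges.

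Genes of GABAergic neurons were higher in Hox-positive neurons in 14 of 16 tested cases (against 5.46% of all genes tested) and lower in 0, with a median log2 fold change of 1.19. Within *Slc17a6*-only cells, chosen by their transporter UMIs, 14 of 14 tested members were higher (against 2.62% of all genes in that fit). A member near 0 in the Hox-negative cells could enter that fit only through the Hox-positive sums, so this count is a description. Cells whose *Slc32a1* RNA was not counted also fall in the *Slc17a6*-only class, and their part was not tested. Within *Slc32a1*-only cells 0 of 14 were higher and 1 was lower (median -0.08). *Slc32a1* (chr2:158607260-158615747) encodes the vesicular transporter that loads GABA and glycine. It was at 158 to 226 CPM in Hox-positive neurons (median 203), at 22.2 to 61.4 in Hox-negative neurons (median 49.4) and at 76.5 to 129 in control neurons, 3 ranges that did not overlap (1.90 ± 0.08, adjusted p = 1.8e-20). The GABA-synthesizing enzymes *Gad1* (490 to 851 against 209 to 311, 1.26 ± 0.05) and *Gad2* (185 to 271 against 74.9 to 111, 1.27 ± 0.07) were likewise separated. The list also holds forebrain interneuron factors, and *Sp9* (2.37 ± 0.26) and *Lhx8* (1.86 ± 0.33) were among its higher members.

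Genes of glutamatergic neurons were lower in 10 of 17 tested cases (against 4.92% of all genes tested) and higher in 2 (*Tbr1* and *Ebf1*, against 5.46%), with a median of -1.11. *Slc17a6* (chr7:51621830-51671126), the vesicular glutamate transporter of the hypothalamus, was not among them: it was at 212 to 587 CPM in Hox-positive and 298 to 458 in Hox-negative neurons (-0.12 ± 0.07, adjusted p = 0.30). Members that were lower included *Neurod6*, a basic helix-loop-helix gene of excitatory neurons (0 to 13.3 against 15.7 to 79.9, -2.26 ± 0.25), *Nhlh2*, a relative of it (22.7 to 67.5 against 84.3 to 236, -1.77 ± 0.10), and *Barhl1*, a homeobox gene of mammillary and subthalamic neurons (5.72 to 21.97 against 22.2 to 72.4, -1.56 ± 0.18). The ranges of these 3 genes did not overlap.

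Cells with UMIs of both transporters were counted after each cell had been thinned to 2000 UMIs, since such shares depend on depth. The share with both *Slc17a6* and *Slc32a1* was 9.68% to 21.3% of Hox-positive neurons (median 14.5%) and 0% to 2.47% of Hox-negative neurons (median 1.63%), without overlap. The means were 14.7% ± 4.2 and 1.56% ± 0.79 (SD, n = 9 embryos), a difference of 13.1 percentage points that was positive in 9 of 9 embryos (exact paired permutation test, two-sided, p = 0.0039, adjusted over 3 shares 0.012). Control neurons held such cells at 0.508% to 3.01% per embryo, and the 330 non-neural cells at 0, which allows up to 0.909%. At full depth the means were 43.8% in Hox-positive and 6.75% in Hox-negative neurons. When 2 UMIs of each transporter were asked, the difference was 1.77 percentage points, higher in 6 of 9 embryos (adjusted p = 0.047, exact permutation test).

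The shares of cells with only 1 of the transporters, which leave out cells with both, moved in opposite directions. *Slc32a1* alone was found in 7.45% to 21.8% of Hox-positive (mean 15.4% ± 4.0) and 0% to 10.1% of Hox-negative neurons (6.65% ± 2.9), higher in 8 of 9 embryos (exact paired permutation p = 0.0078, adjusted 0.012). *Slc17a6* alone was found in 17.6% to 44.7% (30.5% ± 8.0) against 30.5% to 48.8% (42.3% ± 5.1), lower in 8 of 9 embryos (exact paired permutation p = 0.012, adjusted 0.012). The first difference shrank from 8.79 to 2.89 percentage points at full depth (adjusted p = 0.17, exact permutation test). The second was -11.8 when thinned, -33.3 at full depth and -4.12 when 2 UMIs were asked of a positive cell (adjusted p = 0.12, exact permutation test). In non-neural cells the thinned shares were 3.94% for *Slc17a6* alone and 0.606% for *Slc32a1* alone. With cells holding both transporters included, a *Slc17a6* UMI was found in 45.4% of all Hox-positive and 43.5% of all Hox-negative neurons after thinning. For *Slc32a1* these shares were 29.9% and 8.60%.

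**Figure D4:**
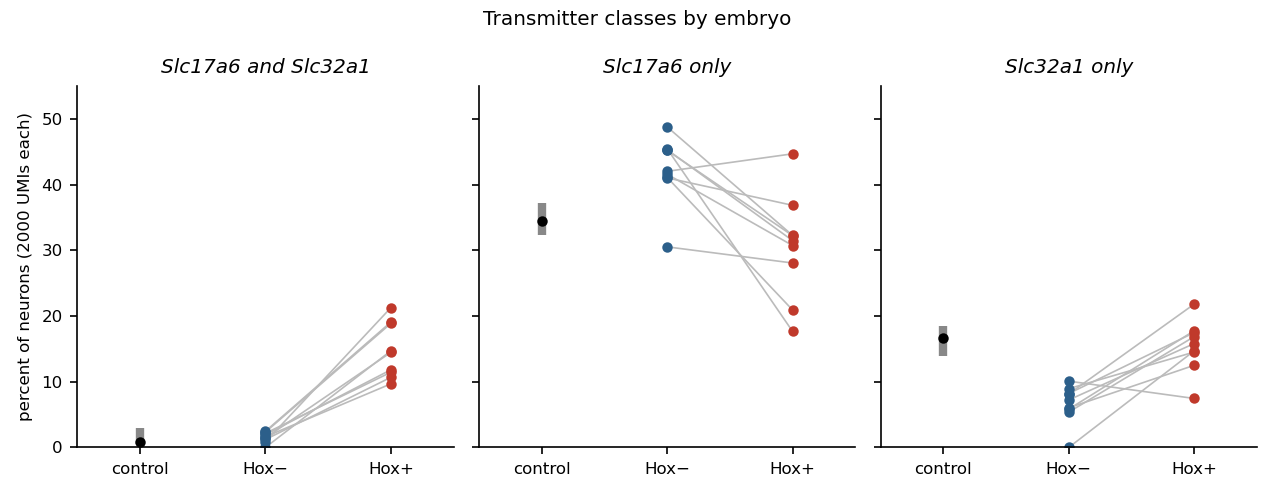
Percent of neurons with UMIs of both *Slc17a6* and *Slc32a1*, of *Slc17a6* only and of *Slc32a1* only, each cell thinned to 2000 UMIs. Points joined by a line are the Hox-negative (Hox−) and Hox-positive (Hox+) neurons of 1 embryo (n = 9), and the grey bar with a black point gives the range and median of 6 control embryos. The share with both runs from 9.68% to 21.3% in Hox-positive neurons, above the 0% to 2.47% of Hox-negative neurons.

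The class comparison was repeated within cells of 1 transmitter class, chosen at full depth. In *Slc17a6*-only cells 719 of 13011 genes passed the threshold (5.53%, with 2.62% higher in Hox-positive cells), and in *Slc32a1*-only cells 220 of 10171 (2.16%, with 1.17% higher). *Gata3* was higher in both (log2 fold changes 3.94 and 3.43), as were *Tal1* (2.83 and 2.02), *Lamp5* (4.43 and 3.96), *Meis2* (2.91 and 2.02) and *Crabp1* (3.56 and 1.24). *Gad1* was higher in *Slc17a6*-only cells (2.12, adjusted p = 9.0e-37, edgeR) and did not pass the test in *Slc32a1*-only cells (-0.28, adjusted p = 0.22), and *Cck* was lower in the first (-2.31) and not in the second (0.03, adjusted p = 0.99). A fit of the difference itself, over 7 embryos with enough cells in all 4 sums, called 145 of 13175 genes (1.10%, with 0.577% higher in *Slc32a1*-only cells), *Gad1* (-2.42), *Gad2* (-2.37) and *Cck* (2.19) among them.

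Genes of hypothalamic neuropeptides and amines were lower in Hox-positive neurons in 16 of 32 tested cases (against 4.92% of all genes tested) and higher in 4 (against 5.46%), *Nms*, *Npw*, *Penk* and *Pnoc*. A peptide gene near 0 in Hox-positive neurons could enter the test only through the Hox-negative sums, so this count too is a description. *Cck*, which encodes cholecystokinin, was at 17.2 to 87.2 CPM (median 38.4) against 44.4 to 389 (median 282) and lower in 9 of 9 embryos (-2.41 ± 0.11, adjusted p = 1.3e-19). *Nts*, which encodes neurotensin, was at 0 to 71.1 against 17.7 to 315 (-2.37 ± 0.27). *Kiss1*, the kisspeptin gene (0 to 7.74 against 0 to 44.8, -3.19 ± 0.35), and *Tac2*, the neurokinin B gene (0 to 3.52 against 0 to 80.9, -4.14 ± 0.41), were higher in 0 of 9 embryos, with overlapping ranges. *Avp*, the vasopressin gene, had a log2 fold change of -4.28 ± 0.25 on levels of 0 to 145 against 0 to 947, yet its UMIs in Hox-negative neurons came from 2.22% of the cells and the share of cells with a UMI was 3.75% in Hox-positive neurons, so a few cells with many UMIs set its level.

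Other genes that were lower in all 9 embryos included *Bdnf*, a neurotrophin (2.74 to 10.5 CPM against 19.7 to 57.7, log2 fold change -2.16 ± 0.22), *Cpne4*, a calcium-dependent membrane-binding protein (1.14 to 24.4 against 30.5 to 79.9, -2.67 ± 0.20), *Wif1*, a secreted WNT inhibitor (0 to 6.28 against 8.10 to 17.9, -2.21 ± 0.40), *Thrb*, a thyroid hormone receptor (0 to 2.81 against 4.29 to 11.6, -2.36 ± 0.45), *Atp10a*, a lipid flippase (-2.16 ± 0.44), and *Gm10421* (-2.20 ± 0.30). None of these ranges overlapped. *Pgr15l*, an orphan receptor gene (-2.83 ± 0.67), and *Krt17*, a keratin gene (-2.34 ± 0.53), were lower in all embryos with overlapping ranges and levels under 10 CPM.

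Inhibitors of cyclin-dependent kinases, which stop the cell cycle, were higher in Hox-positive neurons in 4 of 7 tested cases (against 5.46% of all genes tested) and lower in 0. A member near 0 in Hox-negative neurons, such as *Cdkn2a*, could enter the test only through the Hox-positive sums, so this count too is a description. *Cdkn2a*, which encodes the cell-cycle inhibitors p16 and p19 and is a classical PRC2 target, was at 3.45 to 24.4 CPM against 0 to 2.98 (3.32 ± 0.44, adjusted p = 4.0e-07) and at 0 in all 6 control embryos. *Cdkn2b*, its neighbour, was at 18.3 to 31.5 against 0 to 10.4 (2.52 ± 0.24). *Cdkn2c* (2.75 ± 0.55) and *Cdkn1a* (0.42 ± 0.11) made up the 4. The ranges overlapped for *Cdkn2c* and were separated for the other 3.

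Retinoic acid, the signal that patterns Hox expression in the hindbrain, was represented by 17 tested genes, of which 5 were higher (against 5.46% of all genes tested) and 1 lower (against 4.92%). *Crabp1*, a retinoic acid binding protein of hindbrain and spinal cord, was at 81.5 to 355 CPM (median 218) against 16.98 to 32.8 (median 21.4), a log2 fold change of 3.31 ± 0.13 (adjusted p = 2.8e-22) without overlap, and at 4.91 to 16.2 in control neurons. *Cyp26b1*, which degrades retinoic acid (2.54 ± 0.31), and *Stra6*, a retinol uptake receptor (1.73 ± 0.36), were higher, and the receptor *Rxrg* was lower (-1.85 ± 0.35), all with overlapping ranges.

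The polycomb and trithorax genes themselves were called at shares close to or under the 10.4% of all genes tested. Of 12 PRC2 and associated genes 0 were higher and 1 was lower, the H3K27 demethylase *Kdm6b* (-0.26 ± 0.07, adjusted p = 0.016). *Eed* was at 10.5 to 32.6 CPM in Hox-positive and 17.6 to 36.6 in Hox-negative neurons (-0.25 ± 0.18, adjusted p = 0.47), and its methyltransferase partner *Ezh2* at 33.2 to 89.6 against 39.1 to 62.3 (adjusted p = 1.0). Where the counted reads of *Eed* lie relative to the deleted part of the gene was not examined, so its level is not a check of the deletion in either class. Of 19 genes of PRC1, the complex that binds H3K27me3, *Bmi1* was higher (200 to 375 against 137 to 198, 0.52 ± 0.07) and *Cbx6* lower (-0.28 ± 0.07), and 0 of 12 trithorax genes passed the test. Of 15 tested genes that flank the Hox clusters, 1 was higher (against 5.46% of all genes tested), *Skap2*, beside Hoxa (5.83 to 16.3 against 0.716 to 4.91, 2.16 ± 0.37). *Cbx5* (-0.32 ± 0.06) and *Lnp* (-0.33 ± 0.08) were lower (against 4.92% of all genes tested).

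**Figure D5:**
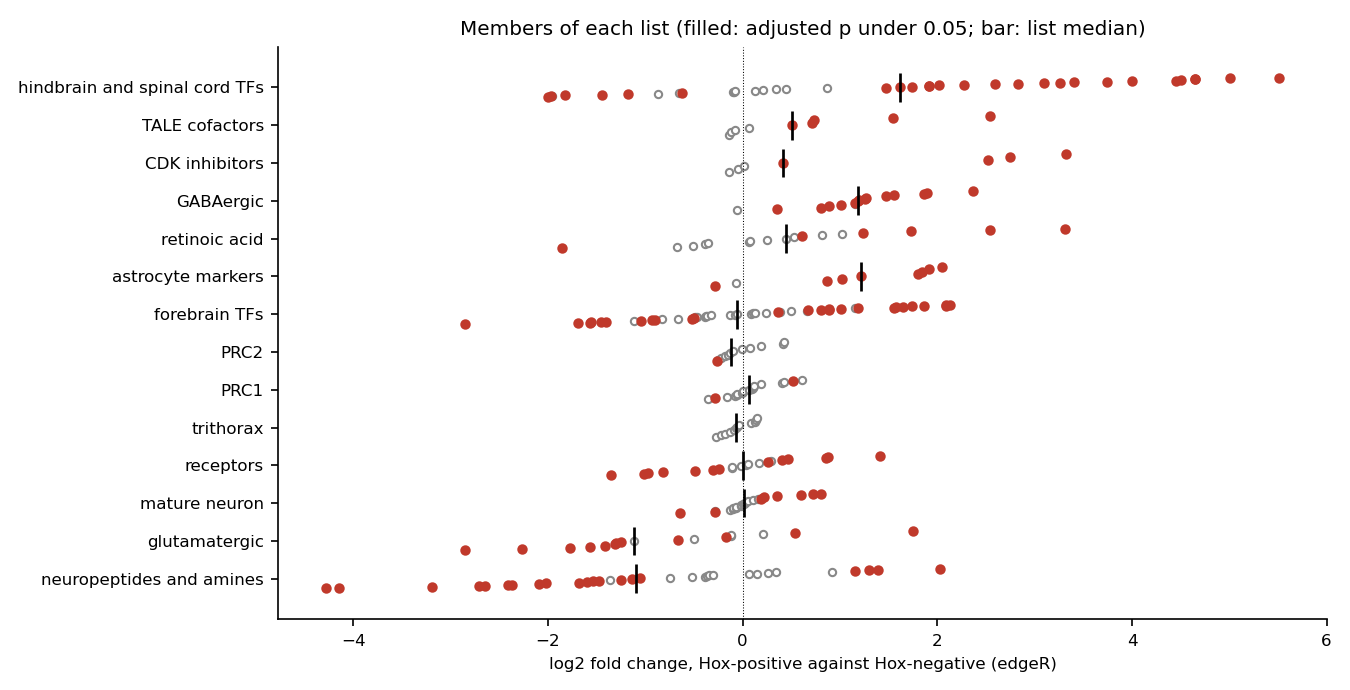
Log2 fold change of the members of 14 gene lists, Hox-positive against Hox-negative neurons, from the edgeR fit with the embryo as a block (TF, transcription factor). Filled red points passed an adjusted p of 0.05, open points did not, and black bars are list medians. The GABAergic and hindbrain lists lie mostly to the right (medians 1.19 and 1.62), the glutamatergic and neuropeptide lists to the left (-1.11 and -1.09), and PRC2, PRC1 and trithorax genes lie around 0.

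Genes of neuronal age gave no single direction. For the lists of this paragraph, the shares over all genes tested were 5.46% higher and 4.92% lower. Of 13 tested genes of young neurons 4 were higher, such as *Igfbpl1* (0.94 ± 0.09), and 5 were lower, such as *Nhlh2* and *Neurod1* (-1.17 ± 0.13). Of 24 genes of maturing neurons 6 were higher, such as the synaptic protein *Cplx1* (0.81 ± 0.12), and 2 were lower, *Camk2a* (-0.65 ± 0.13) among them. Transmitter receptors were mixed as well, with 6 of 20 higher and 7 lower: the glycine receptor *Glra1* was higher (1.42 ± 0.47), and the GABA-A receptor subunits *Gabra2* (-1.35 ± 0.19) and *Gabra5* (-0.97 ± 0.09) were lower. Immediate early genes, which report recent stimulation and dissociation, were higher in 2 of 15 cases and lower in 3.

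Markers of other cell types moved with the classes. At least 2 markers of 1 of 8 lists (astrocyte, oligodendrocyte precursor, ependymal, endothelial, mural, leptomeningeal fibroblast, microglial and cycling progenitor) were detected in 43.6% of Hox-positive and 28.2% of Hox-negative neurons. The tanycyte list was not among the 8: at least 2 of its genes were detected in 55.5% and 55.3% of the cells, and its summed level was 5190 to 8052 CPM against 5938 to 9022, higher in 0 of 9 embryos. Astrocyte genes were higher in 7 of 9 tested cases (against 5.46% of all genes tested) and lower in 1 (*Ptprz1*, -0.28 ± 0.09). Their summed level was 424 to 1045 CPM (median 646) in Hox-positive and 253 to 466 (median 299) in Hox-negative neurons, higher in 9 of 9 embryos. *Fabp7*, the radial glial lipid-binding protein, had a log2 fold change of 2.05 ± 0.16 with all cells and -0.89 (adjusted p = 0.41, edgeR) after the cells with such markers were removed. *Fabp7* was itself 1 of the markers used for that removal. Leptomeningeal fibroblast genes summed to 17.2 to 1190 (median 256) against 17.7 to 644 (median 94.0), and 0 of the 6 tested passed. The shares of cells with 2 or more fibroblast markers were 6.35% and 1.37%, those with cycling progenitor markers 6.68% and 1.18%, those with ependymal markers 3.18% and 0.378%, those with microglial markers 1.06% and 0.0945%, and those with endothelial markers 0.326% and 0.473%. Cells in the top 6% of Scrublet doublet scores of their library made up 9.53% of Hox-positive and 7.80% of Hox-negative neurons.

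With the cells that carried 2 or more markers of 1 of these 8 lists removed, 1000 of 12983 genes passed (7.70%, with 3.67% higher), fewer than the 1361 with all cells. *Gata3* had a log2 fold change of 3.80 (4.00 with all cells), *Tal1* 2.74 (2.59), *Dmbx1* 5.54 (5.51), *Meis2* 2.78 (2.54), *Slc32a1* 2.01 (1.90) and *Foxb1* -3.81 (-2.85). The astrocyte list went from 7 of 9 higher to 2 of 7. Its genes were among those used to remove the cells, so this fall is a description. The GABAergic list, which was not used for the removal, had 14 of 15 higher and 0 lower. Cells with tanycyte genes stayed in this fit, and their part in the differences was not tested.

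Hox-negative neurons were finally set against the 4821 control neurons with 0 Hox UMIs, to ask whether mutant neurons without a counted Hox transcript differed from control. In the edgeR fit over 9 and 6 embryos 968 of 12027 genes passed the threshold (8.05%), 486 higher (4.04%) and 482 lower (4.01%) in the mutant, and for 177 of them the embryos of the genotypes did not overlap. The Hox-negative sums also served as reference in the class comparison, so both sets of values rest on them. Since the Hox rule removed cells from the mutants and nearly none from the controls, a change in cell composition and a change in each cell cannot be told apart, nor can litter and genotype.

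Of the hindbrain and spinal cord factors 22 could be tested in this comparison, of which 5 were higher (against 4.04% of all genes tested), 2 were lower (against 4.01%) and 15 did not pass. *Tal1* was among the higher, at 26.4 to 54.9 CPM in Hox-negative and 2.54 to 7.56 in control neurons (2.89 ± 0.22, adjusted p = 3.0e-09, edgeR). As given above, its share of Hox-negative cells was near that of non-neural *Eed-cKO* cells, and the source of that signal was not tested. *Gata3* did not pass (-0.41 ± 0.43, adjusted p = 0.63, edgeR). *Vax2* was at 7.87 to 16.8 in Hox-negative neurons and gave 0 UMIs in control neurons, which makes it at least 132-fold higher against a floor of 3 UMIs over all control neurons, and at least 590-fold higher in Hox-positive neurons. *Foxd1*, a forkhead gene of the embryonic hypothalamus and retina, was at 3.57 to 13.4 against 0.299 to 1.28 (3.26 ± 0.34). *Hddc3*, a metabolic enzyme gene, was at 94.1 to 142 against 10.7 to 18.2 (2.75 ± 0.11) and did not pass between the Hox classes (0.16 ± 0.08, adjusted p = 0.19). *AW549542* (2.25 ± 0.26) and *Mab21l2* (2.04 ± 0.29) completed the 6 largest increases, and the embryos of the genotypes did not overlap for any of the 6 genes.

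GABAergic genes were lower in Hox-negative neurons than in control in 10 of 15 tested cases (against 4.01% of all genes tested) and higher in 0. *Slc32a1* (-1.11 ± 0.11), *Gad1* (-0.46 ± 0.08), *Gad2* (-0.81 ± 0.08) and *Dlx1*, a homeobox gene of forebrain GABAergic neurons (13.3 to 91.4 against 151 to 199, -1.46 ± 0.12), were lower, with *Sp9* (-1.92 ± 0.28) among the 6 largest decreases without overlap. *Prdm13* (-1.78 ± 0.32), a factor of inhibitory neurons, *Npas1* (-1.44 ± 0.30), of forebrain interneurons, and *Csgalnact1* (-1.53 ± 0.35), of chondroitin sulfate synthesis, were, like *Dlx1*, also among the 6. Of 17 glutamatergic genes 6 were higher (against 4.04% of all genes tested), *Barhl1* (1.21 ± 0.21) and *Foxb1* (0.67 ± 0.19) among them, and 0 were lower. *Meis2* was lower in Hox-negative neurons than in control (-1.31 ± 0.16), *Meis1* higher (1.13 ± 0.23) and *Crabp1* higher (1.25 ± 0.20).

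Among chromatin genes, *Bmi1* was at 137 to 198 CPM in Hox-negative and 68.5 to 89.5 in control neurons (1.07 ± 0.08, adjusted p = 5.5e-09), and *Cbx8* (1.00 ± 0.19) was also higher, while 0 of 12 PRC2 genes passed. Peptide genes went both ways, 7 of 31 higher (against 4.04% of all genes tested) and 4 lower (against 4.01%). *Pomc* (14.4 to 1145 against 10.5 to 37.7, 3.48 ± 0.67) and *Kiss1* (2.28 ± 0.36) were higher, and *Pmch* (-2.90 ± 0.67) and *Oxt* (-2.44 ± 0.61) were lower, with overlapping ranges in each case. A *Pomc* UMI was found in 7.37% of Hox-negative and 4.02% of control neurons, so a small share of cells set its level. Immediate early genes were higher in 13 of 15 cases (against 4.04% of all genes tested), such as *Fosb* (58.1 to 164 against 14.9 to 44.5, 1.68 ± 0.21) and *Npas4* (69.2 to 151 against 35.8 to 44.9, 1.33 ± 0.13). Of 7 listed fibroblast genes 3 could be tested, and 3 were higher (against 4.04% of all genes tested): *Col1a2* (3.31 ± 0.63), *Col3a1* (3.27 ± 0.72) and *Igf2* (2.02 ± 0.56). A fibroblast gene near 0 in control neurons could enter the test only through the Hox-negative sums, so this count too is a description. The part of the immediate early and fibroblast genes in the other differences was not tested. Leaving out 1 control embryo, F4650_E2, raised the count from 968 to 1498 genes, leaving out its library with 1207 cells raised it to 1610, and leaving out F4520_E2 or F4530_E2 lowered it to 640 or 643.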

How the data were processed

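The authors deposited 1 table of raw UMI counts (genes by cells), in which libraries had been joined without normalization; the cells had been filtered before deposit. The submitters' processing notes name STAR 2.5.2b, SAMtools 1.3 and mm10. Mitochondrial genes were not analysed here. Coordinates and the spans of the Hox clusters came from RefSeq for GRCm38.p6.

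Libraries of 1 embryo were summed by class, with the embryo as replicate; the counts of a class are the only input of the tests. The fits used edgeR 4.0.16 (R 4.3.3) with TMM normalization and the quasi-likelihood test at a Benjamini-Hochberg adjusted p of 0.05, on genes with at least 15 UMIs, 2 in 1 sum and a median log-CPM of 1.5. Standard errors were derived from the fold change and its F value. CPM were computed without TMM. The embryo was a block in the class comparison, since both sums came from 1 animal, and no block was possible between genotypes. The 34 Hox rows and 11 other rows inside the clusters were left out of the fits. The 6 neuronal genes of the gate stayed in and are part of the counts, but since the gate used them their calls are not read as results. Between the classes 3 of them were called higher and 2 lower, and against control 0 higher and 1 lower. Shares were compared by exact sign changes over 9 embryos (scipy 1.17.1). Doublets were scored with Scrublet (scanpy 1.11.5) and kept. Limits at 0 are 3 counts of the total and cover counting error only. The blocked fit, the unblocked fit and the fit of the difference between transmitter classes were tested on simulated data, and the share tests were not.

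The genes named were, among genes past the threshold, the 12 largest increases and decreases with the same sign in every embryo (6 each without overlap against control), up to 4 members per list, and 17 genes asked after by name, of which *Evx2* was not analysed here. A few genes that this rule names are not reported here. The members, lists and names were chosen with earlier results of these data known. Alternatives covered the tool (DESeq2 1.42.0, limma 3.58.1), normalization, gene filter, block, depth, the Hox and neuron thresholds, doublets, other cell types, transmitter class and each embryo left out.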

Additional observations from a re-analysis of the deposited data

Results flagged for a closer look

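In a screen of 60 groups of 9 embryos, 15 had an embryo far from the others. Chance flags about 1 in 20 groups of normally distributed values, which levels near 0 from few UMIs are not. The number flagged is therefore not read as an excess. Among Hox-negative neurons, the *Slc17a6*-only share was 30.5% in F0589_E1 (others 41.0% to 48.8%) and the *Slc32a1*-only share 0% in F0582_E2 (others 5.38% to 10.1%), the embryo with the fewest cells. In CPM of Hox-negative neurons, *Barx1* reached 2.98, *Tbx5* 4.48 and *Hand2* 5.97 in F502_E9, *Olig3* 2.61 and *Nts* 315 in F502_E6, *Tlx3* 1.18 in F0589_E1, *Tlx1* 0.925 in F0588_E7, *Nkx2-3* 8.87 in F0582_E2 and *Thrb* 11.6 in F0652_E8. In Hox-positive neurons, *Pax2* reached 35.0 in F0652_E5, *Tbx5* 48.9 in F0582_E2, *Pgr15l* 1.72 in F0582_E7 and *Nts* 71.1 in F0589_E1.

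The difference between Hox-positive and Hox-negative neurons itself differed between *Slc32a1*-only and *Slc17a6*-only cells for 145 genes (edgeR, 7 embryos, 28 sums), 76 with a larger log2 fold change in *Slc32a1*-only cells and 69 with a smaller one. Among the named genes reported here, the log2 fold change in *Slc32a1*-only minus that in *Slc17a6*-only cells was 4.37 for *Avp*, 3.83 for *Foxb1*, 2.60 for *Nhlh2*, 2.19 for *Cck* and 1.05 for *Igfbpl1*. It was -2.67 for *Sp9*, -2.42 for *Gad1*, -2.37 for *Gad2*, -2.24 for *Crabp1*, -1.12 for *Vim* and -0.97 for *Meis2*. The fit was added after the data had been seen. In simulated data it recovered 6% of changes of log2 size 1 and 46% of those of size 2, so genes it did not call are not shown to be alike.

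Outside neurons, 20.3% of 330 non-neural *Eed-cKO* cells held a Hox UMI, against 0.543% of 184 control cells.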

How the results depend on the processing

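The count of 1361 genes between the classes moved to 822 when a log2 change over 0.18 was asked (glmTreat), 705 when cells were thinned to 2000 UMIs before classes were called, and 719 and 220 in *Slc17a6*-only and *Slc32a1*-only cells, which are fewer cells. Without the replicate block it was 949, of which 935 were shared, so pairing both sums of an embryo raised the count; DESeq2 gave 1046, limma-voom 1500, and leaving out 1 embryo 1169 to 1446. The split of 52.6% higher moved to 42.3% with thinned cells. The count of 968 against control moved to 375 (glmTreat), 640 (thinned) and 2781 with libraries as samples; leaving out 1 embryo gave 640 to 1498 (643 without F4530_E2), and leaving out the largest control library, added after the data had been seen, 1610. The *Slc17a6*-only difference was -4.12 at 2 UMIs per positive cell and the *Slc32a1*-only difference 2.89 unthinned; leaving out 1 embryo gave -13.6 to -9.79 and 8.05 to 10.2, the share with both 12.2 to 13.7 (1.77 at 2 UMIs per positive cell and 37.1 unthinned), and the Hoxc and Hoxd difference 3.53 to 3.78.

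For single genes, directions turned, without passing the test, in *Slc32a1*-only cells for *Cck* (0.028), *Nhlh2* (1.21), *Neurod1* (0.21), *Cplx1* (-0.15), *Kdm6b* (0.035), *Gad1* (-0.28) and *Gad2* (-0.16), and in *Slc17a6*-only cells for *Nefm* (-0.035). They turned with cells of other markers removed for *Atf3* (-0.98), *Ier2* (-0.11), *Fabp7* (-0.89), *Hes5* (-0.83) and *Vim* (-0.28), and with thinning for *Ier2* (-0.24), *Aqp4* (-0.071) and *Hes5* (-0.064). *Fabp7* and *Hes5* were among the markers used to remove cells, so their turns in that fit are a description. For the other turns the cause was not tested. Of the other values of named genes between the classes 2536 kept their call, 180 lost it and 3 gained it; against control 1460, 132 and 5. Genes at a few CPM are limited by depth.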
